A study of Homo sapiens with 6 samples.

Results

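The HOX genes encode the homeodomain transcription factors that give cells along the body axis and the limbs their position, and in humans they sit in the HOXA, HOXB, HOXC and HOXD clusters. The genes described here are the protein-coding genes whose symbol is HOXA, HOXB, HOXC or HOXD followed by a number, which gave 39 of the 60664 genes in the deposited count table, and 38 of them are described. Within a cluster the genes stand in the order in which they act from head to tail, and genes at the same place in different clusters form a paralog group, numbered 1 to 13. Adult cells often keep a HOX pattern that reflects where in the body their tissue came from. Polycomb complexes hold HOX genes silent, MLL complexes and retinoic acid keep or switch them on, and HOX proteins bind DNA together with PBX, MEIS and PKNOX proteins.

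The RNA came from U-2 OS, an established line of human osteosarcoma cells whose genotype is labelled polyploid, after transfection with control siRNA (siCTRL) or with siRNA against SFPQ (siSFPQ), a nuclear protein that binds RNA and DNA. Both siRNAs were used at 30 nM with RNAi-MAX Lipofectamine, and 6 libraries of polyadenylated RNA were made, from 3 biological replicates of each condition. The time from transfection to harvest is not given in the sources used here. All values come from 1 cell line, and bulk RNA cannot tell fewer expressing cells from less RNA per cell.

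Total counts were 46142855 to 47119203 per siCTRL library and 43469321 to 45543610 per siSFPQ library, so that 3 counts correspond to 0.0637 to 0.069 CPM, the count scaled to the library total. SFPQ itself had 22338, 23139 and 21753 counts in siCTRL and 3140, 3863 and 3151 in siSFPQ, a log2 fold change of -2.73 (SE 0.05; edgeR's quasi-likelihood test, Benjamini-Hochberg adjusted p = 6.33e-30). The mesenchymal and osteoblast markers VIM, COL1A1, FN1 and SPARC averaged 1042 to 2588 CPM and RUNX2 58.9 CPM, while COL1A2 averaged 0.964 CPM and TWIST1 had 0 counts in every library. The summed level of these markers, 9 with ALPL and CDH2, was 7785 to 8281 CPM in siCTRL and 6919 to 7086 CPM in siSFPQ. Of the 8 tested, VIM rose (log2 fold change 0.32) and 3 were not called at an adjusted p under 0.05. The other 4 fell, namely CDH2 (-1.08), FN1 (-0.53), COL1A1 (-0.35) and SPARC (-0.17). Of all protein-coding genes tested, 28.0% rose and 30.9% fell. The 5 epithelial markers summed to 139.5 to 144.6 CPM in siCTRL and 361.8 to 387.1 CPM in siSFPQ, and 3 of them rose, namely CLDN4 (log2 fold change 1.75), KRT18 (1.36) and CDH1 (0.76). EPCAM (-0.18) and ESRP1 (-0.79) were not called, and KRT18 averaged 232.1 CPM, the most of the 5. The 6 haematopoietic and endothelial markers summed to at most 11.27 CPM. The part of these marker shifts in the HOX results was not tested.

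The HOXD sequences shown here come from neighbouring genes of which HOXD11 and HOXD10 rose and HOXD8 was not called, and the miRNA sequences are those of a family encoded inside the clusters. Each HOXD window holds the 250 bases before a RefSeq start site on the plus strand of GRCh38.p14, 5′ to 3′, and 20 of the 39 HOX genes had a window in the RefSeq table. Capitals mark letters matching TGATNNAT, a composite site of HOX and PBX proteins, TATAAA, the core of the TATA box, or CCAAT, each searched on both strands. The HOXD11 window lies at chr2:176107030-176107279, that of HOXD10 at chr2:176116528-176116777 and that of HOXD8 at chr2:176129455-176129704. The first 2 lie inside the GENCODE spans of their genes (176104216-176109754 and 176108790-176119937), past the annotated starts. The HOXD8 window ends at the GENCODE start of HOXD8 (176129694).
HOXD11: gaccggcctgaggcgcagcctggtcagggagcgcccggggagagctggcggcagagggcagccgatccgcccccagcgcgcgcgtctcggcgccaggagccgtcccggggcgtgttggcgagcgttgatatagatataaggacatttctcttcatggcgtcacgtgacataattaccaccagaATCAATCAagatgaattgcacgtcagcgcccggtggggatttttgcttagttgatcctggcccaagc
HOXD10: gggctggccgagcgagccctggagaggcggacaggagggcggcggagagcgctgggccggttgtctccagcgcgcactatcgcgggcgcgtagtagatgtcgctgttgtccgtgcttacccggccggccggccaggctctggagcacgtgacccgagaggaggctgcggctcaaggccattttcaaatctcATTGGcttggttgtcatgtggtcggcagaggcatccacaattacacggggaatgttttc
HOXD8: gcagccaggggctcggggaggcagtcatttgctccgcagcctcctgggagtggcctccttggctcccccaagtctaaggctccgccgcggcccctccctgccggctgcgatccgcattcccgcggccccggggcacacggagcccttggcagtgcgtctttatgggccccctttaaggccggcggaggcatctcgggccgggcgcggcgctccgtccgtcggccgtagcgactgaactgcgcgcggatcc

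The HOXD11 window held a TGATNNAT match on the minus strand, the HOXD10 window a CCAAT match on the minus strand, and the HOXD8 window none of these motifs. The windows of HOXD1, HOXD3, HOXD4, HOXD12 and HOXD13, which were not called, each held a CCAAT match too. Over the 26 distinct windows of HOX genes, 3 (11.5%) held TGATNNAT, 5 (19.2%) TATAAA and 17 (65.4%) CCAAT. Among all 35116 windows of the table these shares were 6.47%, 10.7% and 32%. The HOX windows had a median of 19.5 CpG dinucleotides and a GC content of 58.8%, against 11 and 58% over all windows. Several of the HOX windows belong to HOXA3, and HOXB1 is the only HOXB gene with a window. Among the called HOX genes only HOXC4, HOXC5, HOXD10 and HOXD11 have one. Repeats of a window were counted once for HOX genes but were kept over all windows, so these shares are neither per gene nor fully alike. HOXC4 and HOXC5 have the same RefSeq window, at chr12:54016638-54016887 on the plus strand. This window lies in an annotated exon of HOXC6 and just before the GENCODE start of HOXC4, but far upstream of that of HOXC5. These matches describe letters only.

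The miR-196 genes lie in the HOXA, HOXB and HOXC clusters and make mature miRNAs that share their seed, bases 2 to 8, shown in capitals from RefSeq. MIR196A1 (chr17:48632532-48632553, minus strand) and MIR196A2 (chr12:53991762-53991783, plus strand) encode the same mature form, and MIR196B (chr7:27169528-27169549, minus strand) a close relative.
hsa-miR-196a-5p: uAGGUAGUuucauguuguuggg
hsa-miR-196b-5p: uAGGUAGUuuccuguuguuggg

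HOXB8 mRNA is a known target of this family. Libraries of polyadenylated RNA do not measure mature miRNAs, and the counts on the miRNA genes come from longer transcripts. MIR196A1 had 76, 29 and 28 counts in siCTRL and 47, 47 and 55 in siSFPQ, groups that overlapped, and was not called (log2 fold change 0.16, edgeR adjusted p = 0.711). MIR196A2 had at most 2 counts in a library and MIR196B had 0 in all of them. All bases of MIR196B lie also in exons of HOXA9 on the same strand and of HOXA10-AS on the other. Reads there may be left out by the counter, so the 0 counts do not show that it was not transcribed.

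After SFPQ knock-down, 10 HOX genes rose and 4 fell among the 37 of these that had at least 10 counts over all libraries, at an adjusted p under 0.05 over the 29022 genes tested. HOXB1, with 4 counts in total, was not tested. The risers were HOXB5, HOXB6, HOXB8, HOXB9, HOXB13, HOXC5, HOXC6, HOXD9, HOXD10 and HOXD11, and the genes that fell were HOXB7, HOXC4, HOXC9 and HOXC13. These are 27% and 10.8% of the HOX genes tested, beside 22.4% of all genes tested that rose and 22.1% that fell. Of the 16477 protein-coding genes tested, the class to which all HOX genes here belong, 28.0% rose and 30.9% fell. The median log2 fold change was 0.19 over the HOX genes and 0.02 over all genes. HOXC5 alone also passed a log2 fold change of 1.5 (2.7% of the HOX genes, beside 5.54% of all genes past this limit upwards), and 0 HOX genes passed -1.5 in edgeR, at an adjusted or an unadjusted p, or in DESeq2, beside 4.77% of all genes. Of the other called genes HOXD11 changed most, by 1.03, and 12 had log2 fold changes under 1 in size.

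**Figure D1:**
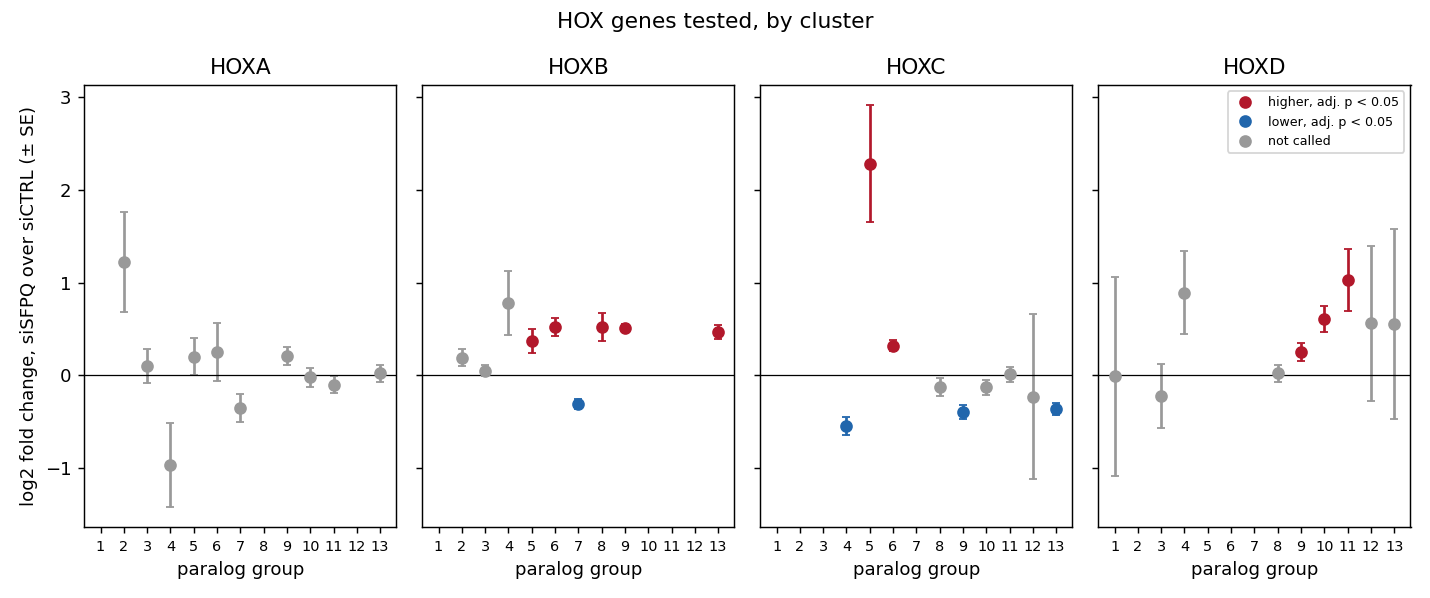
Log2 fold change of siSFPQ over siCTRL (y axis, points with standard errors) for 37 HOX genes tested, by paralog group (x axis) in each cluster, with genes called higher in red, lower in blue and not called in grey. HOXB holds 5 of the 10 higher genes, HOXA holds none of them, and HOXC5 stands highest at 2.28.

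By cluster, HOXB held the most calls. Of 10 HOXA genes, 0 rose and 0 fell in the main edgeR test or in DESeq2, with a median log2 fold change of 0.06. At an unadjusted p under 0.05 in edgeR, 2 were higher and 2 lower. HOXA2, HOXA4, HOXA7 and HOXA9 were called under at least 1 alternative processing. In HOXB, 5 of 9 rose and 1 fell, with a median of 0.47. In HOXC, 2 of 9 rose and 3 fell, with a median of -0.13, and in HOXD 3 of 9 rose and 0 fell, with a median of 0.55 and with 0 lower at an unadjusted p or in DESeq2. These counts, and those by paralog group that follow, stand beside 28.0% of protein-coding genes tested that rose and 30.9% that fell. Differences between clusters or between paralog groups were not tested. The HOXD median was the value of HOXD13, which had 20 counts over all libraries and a standard error of 1.02. For the sums of TMM-normalized counts given below, the log2 ratio was 0.22 in HOXD and 0.27 in HOXB. The medians therefore do not rank these clusters. Among paralog groups 1 to 3 (anterior), 0 of 6 genes rose (2 at an unadjusted p under 0.05 in edgeR, 0 in DESeq2) and 0 fell (0 by either), among groups 4 to 8 (central) 5 of 15 rose and 2 fell, and among groups 9 to 13 (posterior) 5 of 16 rose and 2 fell.

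Summed over its described genes, HOXB had 7282, 7056 and 7091 normalized counts (counts scaled by TMM to a common library size) in siCTRL and 8640, 8559 and 8628 in siSFPQ, a ratio of 1.205. All siSFPQ libraries were above all siCTRL libraries. HOXD summed to 935.8, 962 and 994.7 in siCTRL and 1177, 1106 and 1089 in siSFPQ, a ratio of 1.166, again with no overlap. HOXC summed to 4771, 4923 and 4788 in siCTRL and 4429, 4444 and 4437 in siSFPQ, a ratio of 0.919, with all siSFPQ libraries below. The 10 HOXA genes summed to 1800, 1948 and 2043 in siCTRL and 2012, 1943 and 1909 in siSFPQ, a ratio of 1.012, and its conditions overlapped. With scaling by library size alone the log2 ratio of HOXA was 0.08 in place of 0.02 and that of HOXC -0.06 in place of -0.12. These sums weigh genes by their counts and carry no test.

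**Figure D2:**
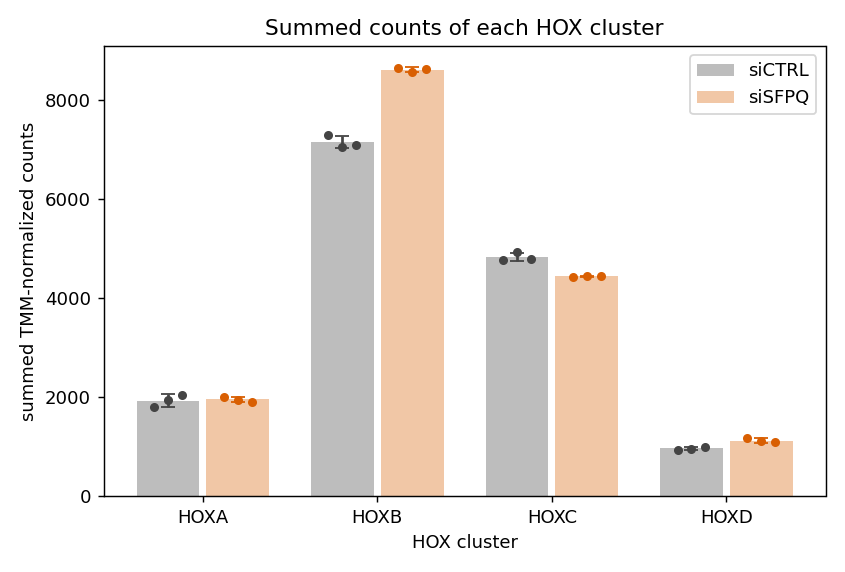
Summed TMM-normalized counts of the genes described in each HOX cluster (y axis) in siCTRL (grey) and siSFPQ (orange), with bars at the mean, error bars of 1 SD (n = 3) and a point per library. HOXB rose from a mean of 7143 to 8609 and HOXC went from 4827 to 4437, while the points of HOXA overlap.

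HOXB9 contributed most to the rise of the HOXB sum. This gene of the thoracic part of the axis is the most abundant HOX gene of these cells per kilobase of exon, and it lies at chr17:48621156-48626358 on the minus strand. It had 2937, 2919 and 2813 normalized counts in siCTRL and 4085, 4170 and 4083 in siSFPQ. All siSFPQ libraries were higher, with a log2 fold change of 0.51 (SE 0.041, edgeR adjusted p = 1.65e-12). HOXB9 made up 40.5% ± 0.86 of the HOXB counts in siCTRL and 47.8% ± 0.819 in siSFPQ (SD, n = 3), and it was 19.4% and 25.5% of the counts on the 38 HOX genes. Without HOXB9 the HOXB ratio was 1.057, and without HOXB9 and HOXB7 it was 1.219.

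HOXB7 moved the other way. Its annotated span, chr17:48607232-48633572, contains HOXB8 and HOXB9, but its exons share no base with another gene. It had 1836, 1564 and 1638 normalized counts in siCTRL and 1366, 1313 and 1396 in siSFPQ, all lower (log2 fold change -0.31, SE 0.0577, edgeR adjusted p = 3.98e-05). Its share of the HOXB counts was 23.5% ± 1.56 in siCTRL and 15.8% ± 0.418 in siSFPQ. Per kilobase of exon, HOXB9 and HOXB7 stood at 1117 ± 26 and 1105 ± 92.3 normalized counts in siCTRL, within their spread, and at 1591 ± 19.2 and 893.5 ± 27.5 in siSFPQ. The ratio of HOXB9 to HOXB7 per kilobase was 0.94, 1.1 and 1.01 in the siCTRL libraries and 1.76, 1.87 and 1.72 in the siSFPQ libraries.

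The other HOXB risers lie between these genes or on either side of them. HOXB13, the most posterior HOXB gene and a marker of prostate tissue, had 562, 654 and 666 normalized counts in siCTRL and 872, 836 and 900 in siSFPQ (log2 fold change 0.47, SE 0.0748, edgeR adjusted p = 2.91e-06). HOXB6 had 297, 264 and 273 in siCTRL and 396, 420 and 380 in siSFPQ (0.52, SE 0.0979, adjusted p = 3.86e-05). HOXB8, which acts in myeloid progenitors and the nervous system, had 90.2, 108 and 119 in siCTRL and 165, 137 and 153 in siSFPQ (0.52, SE 0.152, adjusted p = 0.0054). None of these genes had a siSFPQ library within the range of siCTRL. HOXB5 had 178, 139 and 193 in siCTRL and 205, 221 and 233 in siSFPQ (0.37, SE 0.129, adjusted p = 0.0185). Its conditions did not overlap either, but it was no longer called with DESeq2 or without siCTRL replicate 2, siSFPQ replicate 2 or siSFPQ replicate 3. HOXB2, an anterior gene of the hindbrain and among the 12 highest HOX genes per kilobase, had 404, 374 and 355 in siCTRL and 425, 415 and 457 in siSFPQ and was not called (0.19, edgeR adjusted p = 0.0822).

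HOXB6 shares 16.6% of its exon bases with HOXB3 on the same strand, and 16.3% lie opposite the antisense gene HOXB-AS3. The libraries came from a stranded kit, but the strand setting of the counting is not given in the sources used here, so that reads of a gene and its antisense partner may not be separated. HOXB7, HOXB8, HOXB9 and HOXB13 share no exon base with any annotated gene. Over all clusters 14 HOX genes share none, of which 13 were tested, 4 rose (HOXB8, HOXB9, HOXB13 and HOXD9) and 1 fell (HOXB7). These counts stand beside 28.0% of protein-coding genes tested that rose and 30.9% that fell.

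**Figure D3:**
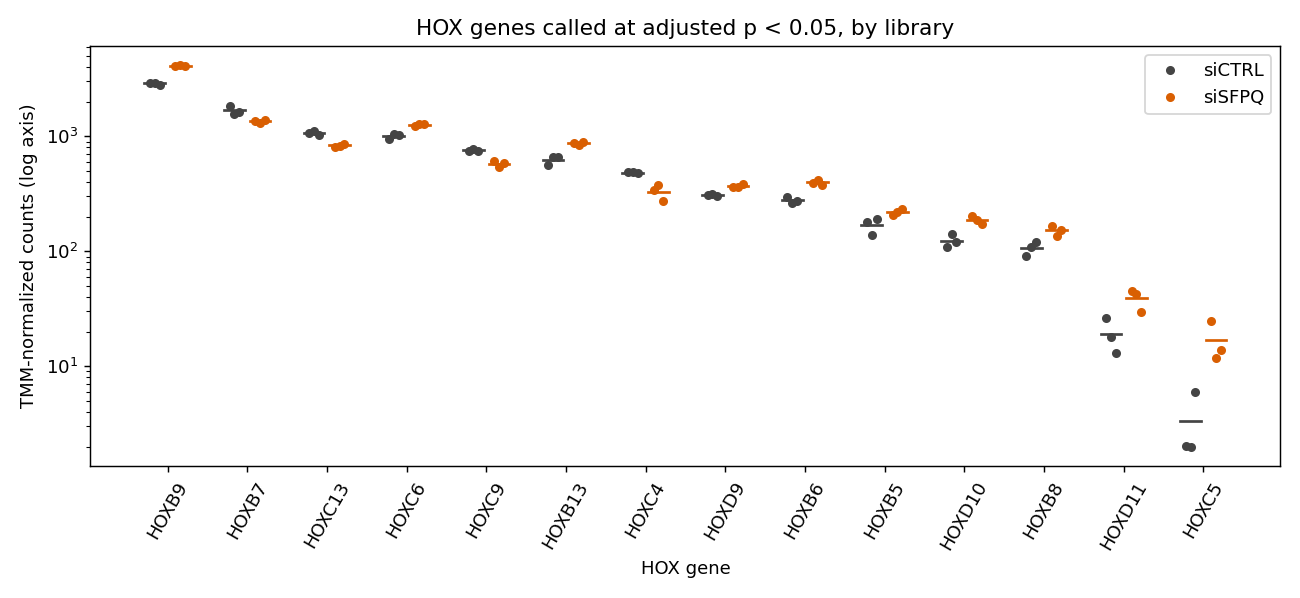
TMM-normalized counts (y axis, log scale) of the 14 HOX genes called at an adjusted p under 0.05 (x axis, ordered by siCTRL level), with a point per library and a bar at the mean of siCTRL (grey) and siSFPQ (orange). The called genes span levels from HOXB9, at a mean of 2889 in siCTRL, to HOXC5, with at most 6 counts in a siCTRL library.

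In HOXC the genes moved in both directions. HOXC6, a thoracic gene, had 949, 1052 and 1028 normalized counts in siCTRL and 1227, 1282 and 1269 in siSFPQ, all higher (log2 fold change 0.32, SE 0.06, edgeR adjusted p = 3.81e-05). HOXC9, which lies within the span of HOXC6, had 749, 781 and 751 in siCTRL and 609, 539 and 587 in siSFPQ, all lower (-0.40, SE 0.0746, adjusted p = 4.02e-05). HOXC6 and HOXC9 thus separated by condition in opposite directions. Their spans overlap, but by paralog number HOXC8 stands between them. HOXC13, known for its role in hair and nails, had 1071, 1121 and 1026 in siCTRL and 811, 827 and 861 in siSFPQ, all lower (-0.36, SE 0.0641, adjusted p = 1.41e-05). HOXC4 had 485, 487 and 480 in siCTRL and 343, 374 and 274 in siSFPQ, all lower (-0.55, SE 0.0987, adjusted p = 1.91e-05). This was the largest fall among the called HOX genes.

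HOXC5 rose from a level near the floor. It had 2, 2 and 6 counts in siCTRL and 24, 12 and 14 in siSFPQ, a log2 fold change of 2.28 with a 95% confidence interval of 1.04 to 3.52 (edgeR adjusted p = 0.00335). The conditions did not overlap, but the gene was not called without siSFPQ replicate 1, where its count was highest. HOXC5 (chr12:54033050-54035361, plus strand) lies within the span of HOXC4, and 67.3% of its exon bases belong also to read-through genes annotated over this stretch. The 5 read-through genes that share exons with HOX genes had 0 counts in every library. Reads in bases that belong to several genes may be left out by the counter, so the HOXC5 counts may hold only part of its reads. HOXC6 and HOXC4 share exon bases with each other as well, and HOXC6 with HOXC9, up to 17.5% of a gene's exon length with all same-strand genes.

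Of the other HOXC genes, HOXC10 had 547, 531 and 533 normalized counts in siCTRL and 472, 510 and 485 in siSFPQ, with a log2 fold change of -0.13 that was not called. HOXC11 had 538, 565 and 581 in siCTRL and 548, 575 and 574 in siSFPQ, and the conditions overlapped (0.01). HOXC8 had 422, 383 and 378 in siCTRL and 392, 320 and 368 in siSFPQ, also with overlap (-0.13). These are posterior and thoracic genes that rank among the 12 highest HOX genes per kilobase. HOXC12 had at most 8 counts in a library.

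In HOXD, the adjacent genes HOXD11, HOXD10 and HOXD9, which pattern the limb and the lower trunk, all rose. HOXD10 had 108, 140 and 119 normalized counts in siCTRL and 201, 187 and 173 in siSFPQ (log2 fold change 0.61, SE 0.14, edgeR adjusted p = 5.12e-04). HOXD11 had 26, 18 and 13 counts in siCTRL and 44, 43 and 30 in siSFPQ (1.03, SE 0.334, adjusted p = 0.0116), and HOXD9 had 310, 317 and 301 normalized counts in siCTRL and 363, 360 and 382 in siSFPQ (0.25, SE 0.0955, adjusted p = 0.0304). In none of them did the conditions overlap. HOXD11 was not called without siCTRL replicate 3, siSFPQ replicate 1 or siSFPQ replicate 2, and HOXD9 was not called with DESeq2, with no count filter, or without siCTRL replicate 3, siSFPQ replicate 2 or siSFPQ replicate 3. HOXD10 and HOXD11 share 18.2% and 21.4% of their exon bases with each other on the same strand, and how the counting treated reads there is not given in the sources used here. HOXD8, the next gene, held 47.8% of the HOXD counts in siCTRL and had 429, 446 and 509 normalized counts there and 505, 449 and 446 in siSFPQ, with overlap (0.02, not called).

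The nearest to the threshold among the genes not called were mostly in HOXA, namely HOXA7 (log2 fold change -0.35, edgeR adjusted p = 0.0602), HOXA2 (1.22, 0.0642), HOXB4 (0.78, 0.0665) and HOXA9 (0.21, 0.0675). HOXA2 had 1, 16 and 11 counts in siCTRL and 23, 11 and 32 in siSFPQ, and its conditions overlapped. Those of HOXA7, HOXB4 and HOXA9 did not.

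Precision differed with depth. The 25 HOX genes with a mean of at least 1 CPM had standard errors of 0.041 to 0.201 on the log2 scale, and 12 of them were called. The 12 tested genes under 1 CPM had standard errors of 0.308 to 1.07, and 2 of them, HOXC5 and HOXD11, were called. The 18 genes that were neither called nor among the 12 highest per kilobase had log2 fold changes from -0.97 (HOXA4) to 1.22 (HOXA2). For the low genes among them the interval is wide, as for HOXD13 (log2 fold change 0.55, 95% confidence interval -1.46 to 2.56) and HOXC12 (-0.23, -1.97 to 1.51), and a change was not detectable at this depth. For HOXA13, which patterns the end of the limb, the interval was -0.16 to 0.20, and for HOXB3 -0.07 to 0.17.

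In paralog groups 9 and 13, but in no other, genes of different clusters were called in opposite directions. In group 9, HOXB9 and HOXD9 rose, HOXC9 fell and HOXA9 was not called. In group 13, HOXB13 rose, HOXC13 fell, and HOXA13 and HOXD13 were not called. In group 6, HOXB6 and HOXC6 rose and HOXA6 was not called, and in group 5 HOXB5 and HOXC5 rose and HOXA5 was not called. Only 1 of 2 genes in group 7, HOXB7, was called, and 1 of 4 in group 4, HOXC4. In groups 8, 10 and 11 the only called genes were HOXB8, HOXD10 and HOXD11. Over 37 genes the log2 fold change had a Pearson's r of -0.07 (Spearman's rho -0.03) with the paralog number and -0.29 (-0.32) with the log2 level per kilobase. These correlations are across genes of the same libraries, which are not independent replicates.

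**Figure D4:**
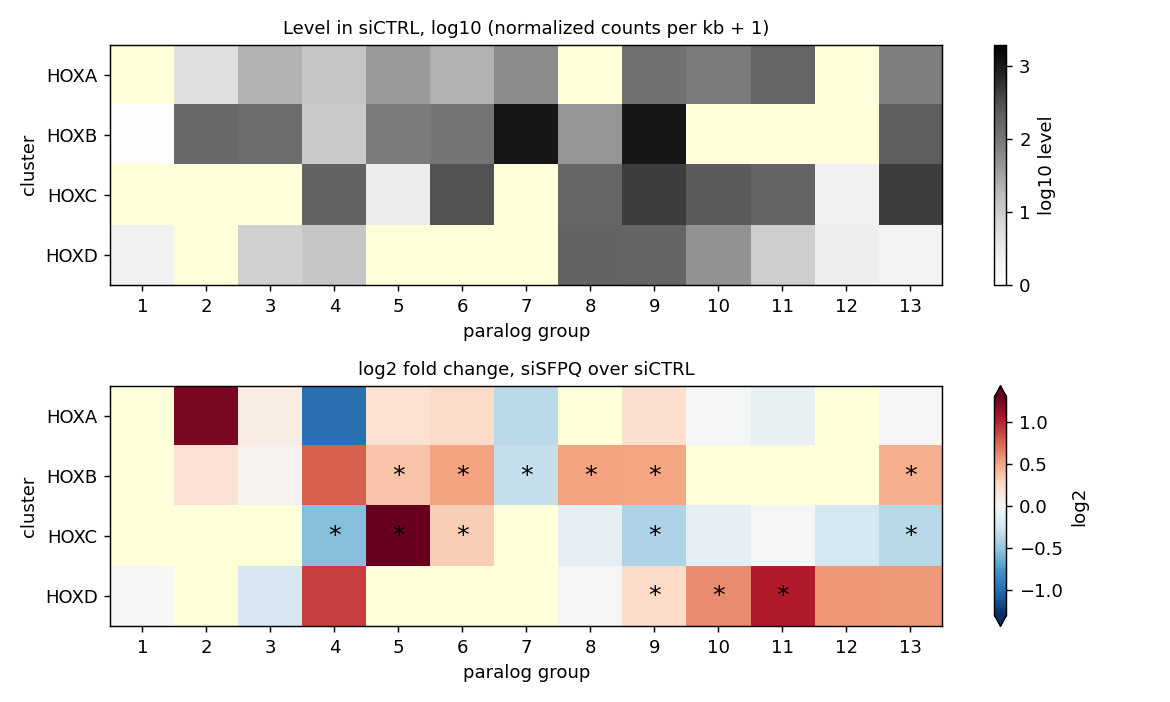
Map of 38 HOX genes by cluster (rows) and paralog group (columns), with the siCTRL level as log10 of normalized counts per kilobase plus 1 in the upper map and the log2 fold change in the lower map, where stars mark called genes and the colour scale stops at 1.3 either way. Yellow cells show no value, in the lower map also for HOXB1, which was not tested. The darkest cells above are HOXB7 and HOXB9, and the starred genes of group 9 show both colours.

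Ordered by the start of their annotated spans, the described HOX genes form 34 pairs of neighbours within clusters. In 5 pairs both genes were called in the same direction (HOXB5 and HOXB6, HOXB8 and HOXB9, HOXB9 and HOXB13, HOXD11 and HOXD10, HOXD10 and HOXD9). In 4 pairs they were called in opposite directions (HOXB6 and HOXB7, HOXB7 and HOXB8, HOXC6 and HOXC9, HOXC4 and HOXC5). The other 25 pairs had at least 1 gene not called. The order by paralog number differs where spans overlap, and its pairs were not counted. In that order HOXC6 and HOXC9 are not neighbours, whereas HOXC5 and HOXC6, which both rose, are.

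The order of the HOX genes by level was led by posterior and central genes. Per kilobase of exon in siCTRL, HOXB9 and HOXB7 came first, followed by HOXC9 (456.5 ± 10.7 normalized counts) and HOXC13 (455.1 ± 20.2), which did not differ beyond their spread. Below these came HOXC6 (291.9 ± 15.6), HOXC10 (226.6 ± 3.65) and HOXB13 (206.4 ± 18.7), and in siSFPQ HOXB13 (285.9 ± 10.5) stood above HOXC10 (206.3 ± 8.02). HOXD9, HOXD8, HOXC11, HOXB2 and HOXC8, which complete the first 12 by the mean of both conditions, had siCTRL means of 153.7 to 175.5. HOXC4 (174.9) and HOXA11 (161) lay within this range in siCTRL. The lowest genes were HOXB1, HOXC12, HOXD13 and HOXD1, each under 2 per kilobase in both conditions.

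The non-coding genes of the clusters rose or were not called. Of 28 listed, 24 were in the table and 18 were tested. Of these 6 rose and 0 fell in edgeR (4 and 0 in DESeq2), with a median log2 fold change of 0.24, beside 22.4% and 22.1% of all genes tested. At an unadjusted p under 0.05, 2 were lower in edgeR, HOTAIR and HOXC13-AS. HOXA-AS2 had 31, 36 and 49 counts in siCTRL and 79, 69 and 76 in siSFPQ (log2 fold change 0.94, edgeR adjusted p = 9.48e-04). HOXB-AS4 had 194, 237 and 229 in siCTRL and 288, 303 and 314 in siSFPQ (0.45, 9.03e-04), and HOXB-AS3 222, 195 and 232 against 264, 325 and 272 (0.40, 0.0038). In each of these antisense genes the conditions did not overlap. Of the exon bases of HOXB-AS3, 30.1% lie opposite HOXB3, HOXB5 and HOXB6, and of those of HOXA-AS2, 13.1% lie opposite HOXA3 and HOXA4. Reads there may not be separated by strand, whereas HOXB-AS4 shares no exon base with another gene. HOXB-AS2 (1.28, edgeR adjusted p = 0.00701), HOTTIP (0.97, 0.0405), which lies beside HOXA13 and helps to activate posterior HOXA genes, and HOXC-AS2 (0.44, 0.0286) also rose. HOXB-AS2 and HOTTIP were low, at means of 0.481 and 0.492 CPM. HOXB-AS2 had 16, 14 and 8 counts in siCTRL and 25, 40 and 28 in siSFPQ, and HOTTIP 21, 7 and 17 against 28, 26 and 35. HOTAIR, a HOXC transcript known for its link to HOXD silencing, had 448, 550 and 566 counts in siCTRL and 454, 481 and 413 in siSFPQ, which overlapped (-0.22, adjusted p = 0.054).

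Among the TALE homeobox genes, whose proteins bind DNA with HOX proteins, MEIS2, MEIS1 and PBX3 had larger falls than any called HOX gene. Of 8 cofactor genes 1 rose and 5 fell, with a median log2 fold change of -0.63, beside 28.0% and 30.9% of all protein-coding genes tested. MEIS2 had 536, 495 and 466 counts in siCTRL and 104, 115 and 90 in siSFPQ (log2 fold change -2.28, edgeR adjusted p = 1.06e-17), and MEIS1 had 1227, 1370 and 1410 against 445, 483 and 448 (-1.55, 6.23e-19). PBX3 (-0.86) and PKNOX1 (-0.39) fell as well, with no overlap between conditions. PKNOX2, named after its values were seen as the third gene past both limits beside MEIS1 and MEIS2, had 6, 5 and 6 counts in siCTRL and 0, 0 and 1 in siSFPQ. MEIS3 rose slightly (0.12, adjusted p = 0.0176), and PBX2 (0.02) and PBX4 (-0.10) were not called.

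Some cofactor genes are much longer than HOX genes. PKNOX2 spans 268.7 kb, PBX3 220 kb, MEIS2 212.1 kb and MEIS1 140.4 kb, introns included, whereas PKNOX1 spans 59.4 kb, PBX4 57 kb, MEIS3 16.4 kb and PBX2 5.47 kb. HOX genes span 1677 to 56043 bases, and 30 of the 38 span under 10 kb. Of all genes tested with a span over 100 kb, 51.3% fell and 14.3% rose, against 10.9% and 18.4% of those under 10 kb. The part of gene length in these results was not tested.

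**Figure D5:**
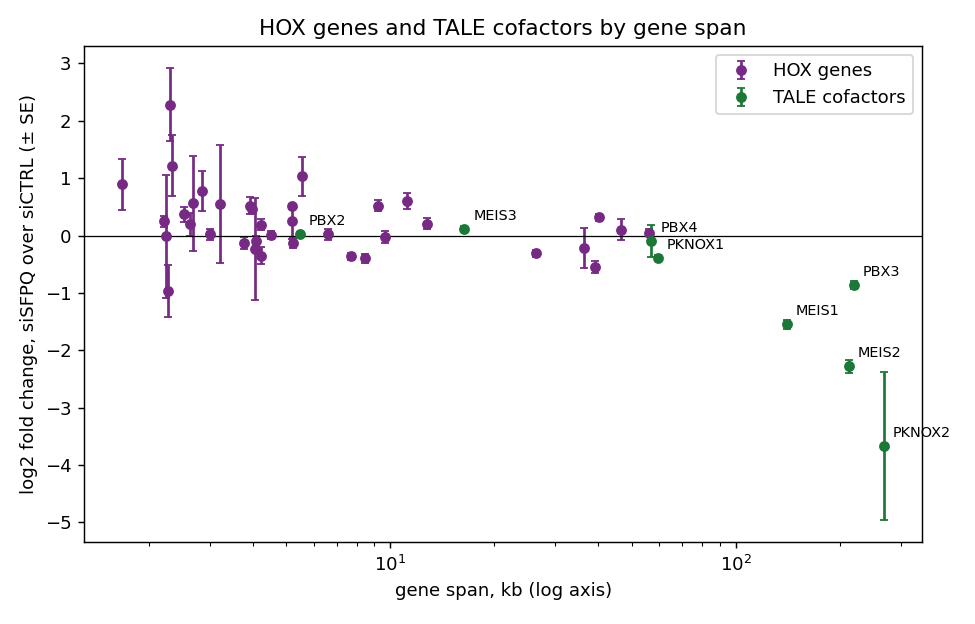
Log2 fold change of siSFPQ over siCTRL (y axis, points with standard errors) against gene span in kb (x axis, log scale) for 37 HOX genes tested (purple) and 8 TALE cofactors (green, named). The plotted cofactors with spans of at least 140.4 kb lie at or below -0.86, and no HOX gene tested spans more than 56.04 kb.

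The chromatin regulators of the clusters had log2 fold changes under 1 in size, with the exception of STAG1. The counts of these lists and of the retinoic acid pathway stand beside 28.0% of protein-coding genes tested that rose and 30.9% that fell. In the Polycomb complex PRC2, which sets the silencing mark on H3K27, 2 of 13 genes rose and 9 fell, with a median log2 fold change of -0.24. The largest falls were those of the methyltransferase EZH2 (-0.47), SUZ12 (-0.35), EZH1 (-0.32), AEBP2 (-0.31) and JARID2 (-0.29). In PRC1, 7 of 20 rose and 6 fell (median -0.02), led by SCMH1 (-0.74), PHC2 (0.55), YAF2 (-0.39), CBX8 (0.27) and PCGF5 (-0.26). In the list for MLL complexes and H3K27 demethylases, which oppose Polycomb, 6 of 11 rose and 2 fell (median 0.13). The largest changes were those of DOT1L (0.46), PSIP1 (-0.46), KMT2B (0.30), KDM6B (0.29) and WDR5 (-0.25). DOT1L is on this list but is neither an MLL subunit nor an H3K27 demethylase. Of 7 genes for geminin and the CTCF and cohesin insulator, 0 rose (0 at an unadjusted p under 0.05 in edgeR and 0 in DESeq2) and 3 fell, namely the cohesin subunits STAG1 (-1.28) and RAD21 (-0.23), and CTCF (-0.15). STAG1 spans 416.2 kb.

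In the retinoic acid pathway, 5 of the 15 genes tested rose and 2 fell, with a median log2 fold change of 0.09. The receptor RXRA fell (-0.58), while CYP26B1 (0.52), which breaks retinoic acid down, the retinol transporter STRA6 (0.39), and the receptors RARG (0.34) and RXRB (0.31) rose. RARA fell by 0.12 on the log2 scale, and the remaining riser was CRABP2 (0.29). CYP26A1 and RARB, known targets of the pathway, averaged 0.135 and 0.651 CPM and were not called.

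Most called genes beside the clusters fell. Of 14 flanking genes tested, 2 rose and 7 fell, with a median log2 fold change of -0.27, beside 28.0% and 30.9% of protein-coding genes tested. HIBADH, beyond the posterior end of HOXA and spanning 137.4 kb, fell by 1.55 on the log2 scale, and SNX10, on the other side of HOXA, fell by 0.78. Beside HOXB, CALCOCO2 (0.63) and TTLL6 (0.81) rose, and MTX2, beside HOXD, fell (-0.53).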

How the data were processed

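Gene expression was measured by RNA-seq of 3 siCTRL and 3 siSFPQ libraries of U-2 OS cells, grouped by their labels. The values deposited by the authors are raw counts per Ensembl gene. By the submitters' processing notes and the study's methods, reads were checked with FastQC and aligned and counted with STAR 2.7.9a on GRCh38. Names, spans and exon lengths came from GENCODE release 44, which holds 99.67% of the 60664 gene identifiers, and promoter and miRNA sequences from RefSeq on GRCh38.p14.

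Genes with at least 10 counts in total entered the quasi-likelihood test of edgeR 4.0.16 (R 4.3.3) after TMM normalization and without covariates, and p-values of the 29022 genes were adjusted by Benjamini and Hochberg's method. The study's methods call genes with DESeq2, at limits of 0.05 for the adjusted p and 1.5 for the log2 fold change in either direction. Standard errors were derived from the test statistic. Alternatives were filterByExpr or no filter, RLE factors or library size alone, DESeq2 1.42.0, protein-coding genes only, the replicate number as a block, a log2 limit of 1, and each library left out. On simulated counts of the same comparison the tests were tested with 200 changed genes. Libraries of 1 condition were distinct from each other, with a chi-square of 3.77 to 5.49 per degree of freedom.

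The members and lists were chosen with earlier results of these data known, as were the motifs. HOX genes called or among the 12 highest per kilobase (mean of both conditions) are given by library, and of the other lists up to 5 called genes of at least 1 CPM with the largest changes, plus the called cluster non-coding genes. Set tests and p-values over lists were not used, and the authors' own fold changes and p-values were not used. Mature miRNAs and proteins were not analysed here. Single genes of the HOX and cofactor lists are not reported here and are left out of the counts, sums and figures for those lists.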

Additional observations from a re-analysis of the deposited data

How the results depend on the processing

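Of the 14 called HOX genes, 10 kept their call and direction in all 13 alternatives (HOXB6, HOXB7, HOXB8, HOXB9, HOXB13, HOXC4, HOXC6, HOXC9, HOXC13 and HOXD10); those of HOXB5, HOXC5, HOXD9 and HOXD11 were lost in some. The HOX genes higher numbered 8 to 13 and those lower 4 to 5 over the alternatives. Some genes not called in the main test gained a call in alternatives. These were HOXA2 (in 4 of them), HOXA9, HOXB2 and HOXB4 (3 each), and HOXA4, HOXA7 and HOXD4 (1 each). HOX genes past both limits upwards numbered 0 to 2 without a library each (0 without siSFPQ replicate 1) and 2 at a log2 limit of 1. All genes past both limits numbered 967 upwards with filterByExpr, and 585 upwards and 827 downwards among protein-coding genes only, where fewer genes were tested. With library size alone the summed log2 ratios were 0.08 (HOXA), 0.33 (HOXB), -0.06 (HOXC) and 0.28 (HOXD), and HOXA10 (0.04) and HOXD1 (0.05) changed sign; HOXD1 was 0.01 among protein-coding genes only. All the sign changes were in genes not called. Without a library each the log2 fold changes ran as follows: HOXA10 -0.10 to 0.07, HOXA13 -0.07 to 0.08, HOXA3 -0.01 to 0.28, HOXC11 -0.02 to 0.05, HOXC12 -0.69 to 0.39, HOXD1 -0.79 to 0.38, HOXD12 -0.01 to 1.74, HOXD13 -0.41 to 1.33, HOXD3 -0.49 to 0.12, HOXD8 -0.03 to 0.09. With the replicate block 12 HOX genes were higher and 4 lower. Libraries of the same number correlated at -0.012, 0.076 and 0.05, and not every library correlated best with its own number, so the numbers are not taken to pair the samples. The causes were not tested. Depth limits the 12 tested HOX genes under 1 CPM.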

Other observations

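Homeobox and T-box genes of limb and skeleton outside the HOX clusters included larger fold changes than those of the called HOX genes other than HOXC5. Of 36 listed, 33 were tested, of which 9 rose and 7 fell, with a median log2 fold change of 0.08, beside 28.0% and 30.9% of protein-coding genes tested. PRRX2, a gene of limb mesenchyme, had 263, 246 and 251 counts in siCTRL and 22, 34 and 33 in siSFPQ (log2 fold change -3.09, edgeR adjusted p = 8.59e-17), and LMX1B, which sets the dorsal side of the limb, had 237, 175 and 218 against 49, 69 and 63 (-1.80, 2.61e-11). DLX3 had 20, 39 and 18 counts in siCTRL and 107, 126 and 99 in siSFPQ (2.10, 7.63e-09), SIX2 95, 79 and 86 against 347, 409 and 356 (2.09, 7.4e-16), and MSX2 317, 330 and 328 against 845, 710 and 788 (1.26, 3.93e-14). In none of these genes did the conditions overlap. Of 11 para-HOX and cluster-linked homeobox genes only 5 were tested, of which 3 rose and 0 fell in edgeR (2 and 0 in DESeq2, and 0 lower at an unadjusted p under 0.05), with a median of 0.96. CDX2, an intestinal regulator of HOX genes, had 117, 99 and 132 counts in siCTRL and 167, 158 and 162 in siSFPQ (0.48, edgeR adjusted p = 0.00705). GSX2, with 3, 12 and 16 counts against 34, 24 and 32, and MEOX1, with 9, 24 and 25 against 44, 44 and 25, are the other risers and were named after their values were seen.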
